A study of Danio rerio with 8 samples.

Results

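Claudins a to i are zebrafish members of a family of tight junction proteins, and their transcripts were followed in wild-type (WT) and MZspg embryos during epiboly. Members were the probe sets whose platform gene symbol is cldna, cldnb, cldnc, cldnd, cldne, cldnf, cldng, cldnh or cldni. Of these 9 symbols 6 were found on the array, with 9 of its 12477 probe sets: 4 for cldng and 1 each for cldnb, cldnd, cldne, cldnf and cldni. The 6 genes stand among 7628 genes that have a probe set with a single symbol. The genes once called cldnc and cldnh are annotated on the array under their later symbols cldn3d and cldn3c and are given among the other claudins, and cldna was not analysed here.

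RNA was extracted from pools of 120 whole zebrafish embryos and measured on 8 Affymetrix arrays, with 2 biological replicates in each of 4 groups. WT embryos came from AB x TÜB crosses, and MZspg embryos, mutant for spg in mother and embryo alike, carried the m793 allele of this locus, which encodes the transcription factor Pou5f3. Each genotype was sampled at 4.7 hours of development, the stage of 30% epiboly, and at 7 hours, that of 60% epiboly. The labels give no background strain for MZspg and do not say which samples came from in vitro fertilisation and which from natural crosses.

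Claudins cross the membrane with 4 helices, and their extracellular loops meet those of neighbouring cells to form the strands of the tight junction, which sets what passes between epithelial cells. In the zebrafish blastula and gastrula, tight junctions seal the enveloping layer, the outermost epithelial sheet, and its margin is attached to the yolk syncytial layer while both spread over the yolk. Claudin E is known to be needed for epiboly in zebrafish, and cldnb is widely used as a marker of epithelia such as the lateral line primordium. The comparison asks how these transcripts differ with the loss of Pou5f3 and with progress from late blastula to mid-gastrula.

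The deposited values are linear signal intensities with the same quantiles on every array. Between 14.98% and 22.42% of the cells of an array were empty. Tests were run on the 7372 probe sets whose signal was 41.06 or more (the 40th percentile of all values) on 2 or more of the 8 arrays. Replicates correlated at 0.921 to 0.952 across these. Fold changes are differences of log2(signal + 9) from limma, are called when the Benjamini-Hochberg adjusted p over all tested probe sets lay under 0.05, and understate changes of dim probe sets. Spike-in controls were brighter on replicate 2 of both genotypes at 60% epiboly (geometric means 458.3 and 579.6, against 56.17 to 143.8 on the other 6 arrays). The pou5f3 probe set read 2850 and 3166 in WT and 1292 and 1327 in MZspg at 30% epiboly, and 2957 and 2214 in WT and 1268 and 890.8 in MZspg at 60% epiboly, lower in MZspg at both stages but present (log2 fold changes -1.19 and -1.26, adjusted p = 0.0223 and 0.0108 by limma). Of 8 genes that mark the gastrula's mesoderm and endoderm 7 passed the filter, among them tbxta, the mesodermal T-box factor, at 47.55 to 332.1. The endodermal gene sox17 did not, with values on the WT arrays of 60% epiboly alone (12.08 and 11.73).

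Of the 9 claudin probe sets 7 were tested, and none of their cells was empty. The filter was reached on all 8 arrays by cldnb, cldnd and the cldng probe sets ending in S1_at, S4_x_at and S5_a_at. It was reached by cldnf on 3 arrays, all MZspg, and by the cldng probe set ending in S3_at on 4 arrays, all of 60% epiboly, so that these probe sets entered the test through the groups in which they were high. The 2 others, cldne and cldni, stayed below the filter on every array.

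**Figure D1:**
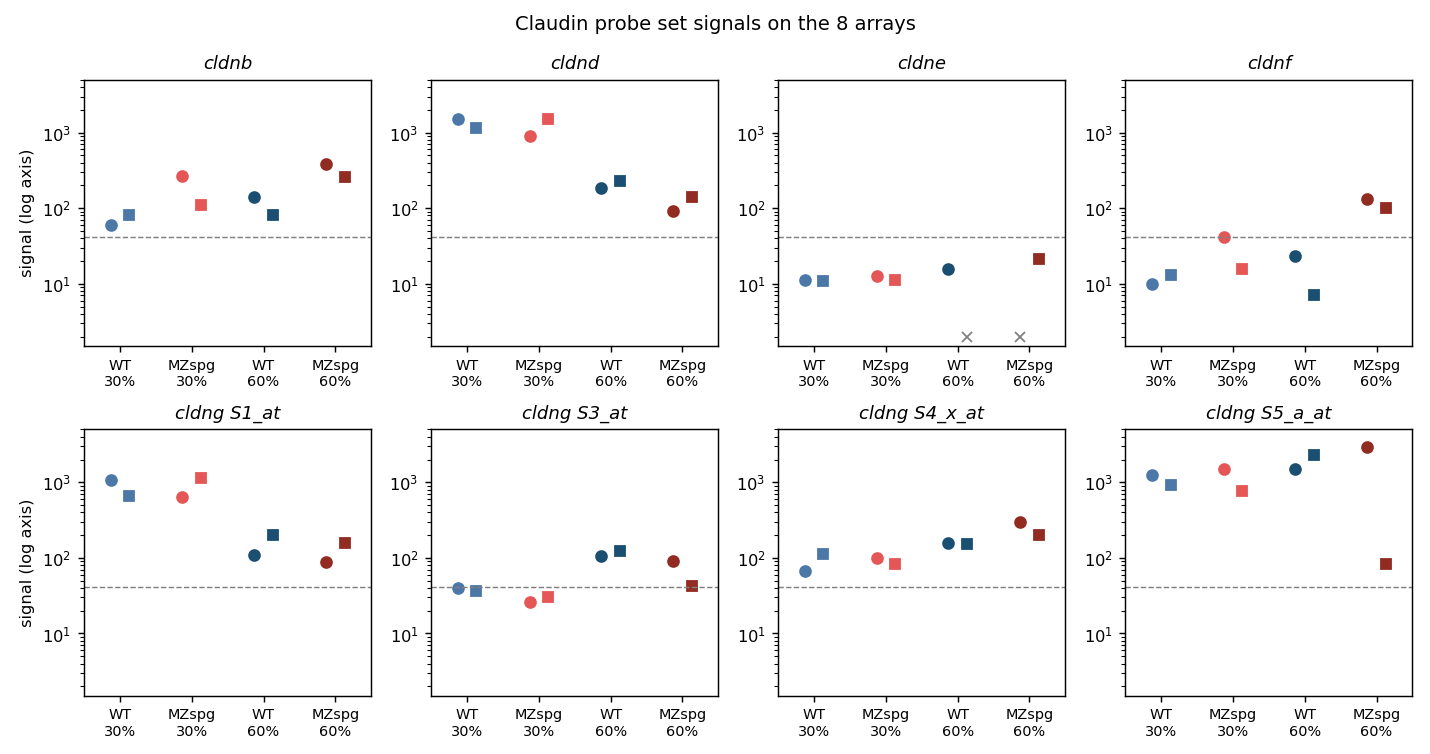
Signal of 8 claudin probe sets (log axis) on the 8 arrays, in groups by genotype and stage. Circles are replicate 1 and squares replicate 2, crosses are empty cells drawn at the lowest value of the table, and the dashed line is the filter level of 41.06. The cldnd signals of 60% epiboly all lie below those of 30%, and the highest cldnf signals, 131.8 and 99.85, are those of MZspg at 60% epiboly.

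The steepest change among the claudins was a fall of cldnd between the stages in both genotypes. The 8 arrays gave signals of 1530 and 1133 in WT and 892.6 and 1514 in MZspg at 30% epiboly, and 182.5 and 228.0 in WT and 91.41 and 142.2 in MZspg at 60% epiboly. All 4 arrays of the later stage lay below all 4 of the earlier one, as for 20.5% of all tested probe sets. In WT the fall was 6.22-fold (log2 fold change -2.64, SE 0.351, adjusted p = 0.00508 by limma). In MZspg it was 9.51-fold (-3.25, SE 0.351, adjusted p = 0.000414). The MZspg call held whichever array was left out, and the WT call was lost without WT replicate 1 of 30% epiboly (-2.42, adjusted p = 0.113), a fit in which 0 of the 7372 probe sets was called in that comparison. In RNA of whole embryos, fewer cells of a type and less RNA per cell cannot be told apart.

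Between the genotypes the levels of cldnd lay closer together. At 30% epiboly the groups overlapped (log2 fold change -0.18, 95% interval -0.94 to 0.59). At 60% epiboly both MZspg arrays were below both WT arrays (-0.79, 95% interval -1.56 to -0.02), but the adjusted p was 0.212 by limma. Within the spike-in sets the difference was -0.93 between the replicate 1 arrays and -0.65 between the replicate 2 arrays, of one sign because the groups did not overlap. From high to low, the groups were ordered WT and MZspg at 30%, WT at 60% and MZspg at 60% epiboly, and only the step between the stages passed the test.

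The gene cldng, whose 4 probe sets gave different accounts of the same symbol, had one that followed cldnd. This probe set, ending in S1_at, is linked by the annotation to the RefSeq mRNA of the gene, and the other 3 to expressed sequence tags. It read 1062 and 657.9 in WT and 644.9 and 1154 in MZspg at 30% epiboly, then 109.6 and 201.9 in WT and 89.36 and 158.3 in MZspg at 60% epiboly. All arrays of 60% epiboly were below all of 30%, and the genotypes overlapped at both stages. The fall was 5.34-fold in WT (log2 fold change -2.42, SE 0.429, adjusted p = 0.0099) and 6.80-fold in MZspg (-2.77, SE 0.429, adjusted p = 0.00155 by limma). The WT call was lost without WT replicate 1 of 30% epiboly (-2.08, adjusted p = 0.158) or of 60% epiboly (-2.00, adjusted p = 0.0644), and with no filter on dim probe sets its adjusted p was 0.05004. Without WT replicate 1 of 30% epiboly 0 of all tested probe sets were called in that comparison. The MZspg call held in all 8 fits with an array left out. The genotype differences were 0.05 (95% interval -0.89 to 0.98) at 30% and -0.30 (-1.24 to 0.64) at 60% epiboly.

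The cldng probe sets ending in S3_at and S4_x_at had the opposite direction between the stages. The first read 40.52 and 36.67 in WT and 26.01 and 30.57 in MZspg at 30% epiboly, and 105.6 and 124.8 in WT and 90.84 and 42.80 in MZspg at 60%. Every array of 60% epiboly was above every array of 30%, as for 13.7% of all tested probe sets. The rise was called in WT (1.38, SE 0.389, adjusted p = 0.0375) and not in MZspg (0.95, adjusted p = 0.081 by limma). The WT call was lost without any one of the 4 WT arrays (adjusted p from 0.119 to 0.215) with no filter (0.0824) and without both arrays of high spike-in signal (0.114), while the MZspg rise passed without replicate 2 of 60% epiboly (1.42, adjusted p = 0.0444).

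The suffix x of the S4_x_at probe set marks probes that may also match other sequences, so its assignment to cldng is uncertain. It gave 67.99 and 112.1 in WT and 98.69 and 82.30 in MZspg at 30% epiboly, and 155.2 and 150.7 in WT and 296.8 and 201.0 in MZspg at 60% epiboly. Here too every array of the later stage was the higher. The rise was called in MZspg (1.35, SE 0.368, adjusted p = 0.017) and not in WT (0.75, adjusted p = 0.191 by limma). The MZspg call was lost without replicate 2 of MZspg at 30% (1.23, adjusted p = 0.106) or replicate 1 at 60% epiboly (1.08, adjusted p = 0.0742), without both arrays of high spike-in signal (1.62, adjusted p = 0.0634) and when only the MZspg arrays were fitted (adjusted p = 0.0551). Neither probe set differed by a called amount between the genotypes: the log2 fold changes were -0.35 and 0.04 at 30% and -0.78 and 0.65 at 60% epiboly.

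The brightest cldng signals came from the probe set ending in S5_a_at, and 1 array decided its values. It read 1232 and 906.8 in WT and 1496 and 765.7 in MZspg at 30% epiboly, 1507 and 2284 in WT at 60% epiboly, and 2957 and 82.96 in MZspg at 60% epiboly. Its highest and its lowest signal were therefore the replicates of one group. Of the 7372 tested probe sets, only 2, this one included, had a gap between the MZspg arrays of 60% epiboly at least as large as its 5.01 log2 units, where the median gap was 0.439. The genotype difference at 60% epiboly was -1.84 (SE 1.09, adjusted p = 0.345), but 0.67 without MZspg replicate 2 and -4.34 (adjusted p = 0.00121 by limma) without MZspg replicate 1. Between the stages in MZspg it was -1.05 (adjusted p = 0.482), and 1.46 (adjusted p = 0.0382) or -3.55 (adjusted p = 0.000717) without the one or the other. That array was also one of those with high spike-in signal, whose part in the gap was not tested. On it the S1_at and S4_x_at probe sets of the same gene read 158.3 and 201.0, above and below their 89.36 and 296.8 on replicate 1, and S3_at read 42.80 against 90.84.

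**Figure D2:**
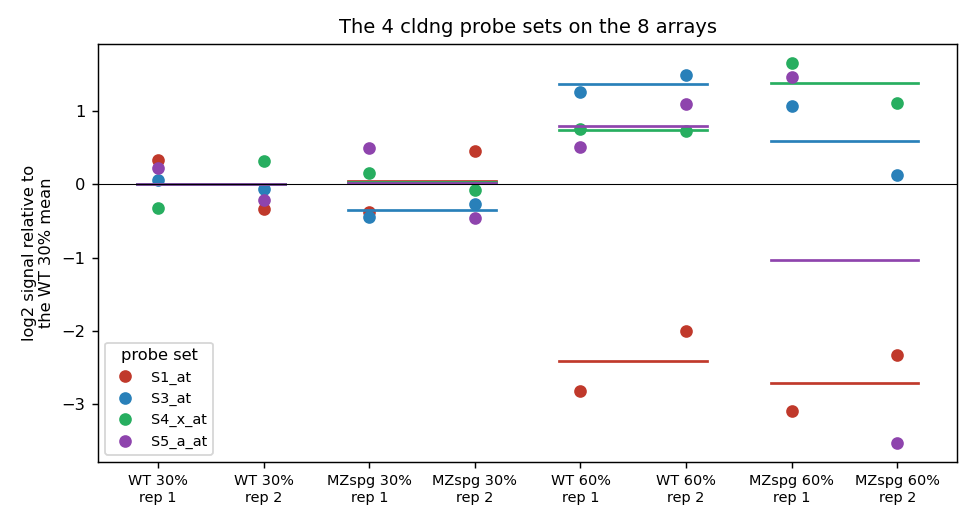
Log2 signal of the 4 cldng probe sets on each array, relative to the mean of the 2 WT arrays of 30% epiboly. Points are arrays and lines are group means. At 60% epiboly S1_at (red) lies below 0 on all 4 arrays and S3_at (blue) and S4_x_at (green) lie above 0, while S5_a_at (purple) lies above 0 on 3 arrays and far below on MZspg replicate 2.

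Within each array, the log2 signal of S1_at exceeded that of S3_at by 4.35 ± 0.422 at 30% and by 0.59 ± 0.793 at 60% epiboly (SD, n = 4 arrays of both genotypes). Over S4_x_at it was higher by 3.13 ± 0.699 at 30% epiboly, and at 60% epiboly the difference was -0.51 ± 0.843. These differences are a description, since the pairs were chosen after the values were seen. The probe sets of cldng gave opposite signs between the stages, and no direction is given for the gene as a whole.

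Within a single stage, cldnf was the only claudin of the group called between the genotypes, and it was higher in MZspg at 60% epiboly. It read 10.003 and 12.94 in WT and 41.98 and 15.49 in MZspg at 30% epiboly, and 23.02 and 7.078 in WT and 131.8 and 99.85 in MZspg at 60% epiboly. Both MZspg arrays of the later stage stood above the other 6. The log2 fold change over WT at 60% epiboly was 2.45 (SE 0.452, adjusted p = 0.0117 by limma). All 4 WT signals lay under 24.62, the 95th percentile of signals whose replicate cell was empty, so the size of the difference is not fixed by these values: it was 3.05 with a pseudocount of 1 and 1.49 with one at the 40th percentile, called in both. It was 2.14 between the replicate 1 arrays and 2.76 between the replicate 2 arrays, which form the low and high spike-in sets. These were of one sign because the groups did not overlap. The call was lost without WT replicate 2 of 60% epiboly (1.95, adjusted p = 0.0757), without both arrays of high spike-in signal (2.14, adjusted p = 0.18) and in a fit to the 4 arrays of 60% epiboly alone (adjusted p = 0.0808). With no filter on dim probe sets its adjusted p was 0.0457, and a stricter filter left cldnf out.

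From 30% to 60% epiboly cldnf rose in MZspg by 1.81 on the log2 scale (SE 0.452, adjusted p = 0.0118), while in WT the groups overlapped (0.15, adjusted p = 0.854 by limma). The MZspg rise was not called without MZspg replicate 2 of 30% epiboly (1.28, adjusted p = 0.13). The difference between these rises was 1.66 (95% interval 0.26 to 3.06), and its adjusted p was 0.533, so a difference between the genotypes in the course of cldnf was not shown. At 30% epiboly both MZspg arrays were above both WT arrays (0.79, adjusted p = 0.71).

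The signals of cldnb lay higher in MZspg at both stages, without a call at either. It read 59.90 and 82.12 in WT and 269.6 and 108.9 in MZspg at 30% epiboly, and 139.0 and 82.12 in WT and 382.2 and 257.2 in MZspg at 60% epiboly. At each stage both MZspg arrays were above both WT arrays. The log2 fold change was 1.19 (SE 0.456, adjusted p = 0.371) at 30% and 1.47 (SE 0.456, adjusted p = 0.0883 by limma) at 60% epiboly. Within the spike-in sets of the later stage it was 1.40 and 1.55, of one sign because the groups did not overlap. Between the stages it was 0.55 in WT and 0.83 in MZspg, neither called (adjusted p = 0.445 and 0.18), though the latter passed without MZspg replicate 1 of 30% epiboly (1.45, adjusted p = 0.0456). The groups ran from WT at 30% over WT at 60% and MZspg at 30% to MZspg at 60% epiboly, and neighbours in that order overlapped or met.

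Averaged over the stages, in a contrast added after the values were seen, MZspg exceeded WT by 2.52-fold for cldnb (1.33, SE 0.322, adjusted p = 0.0279) and by a log2 fold change of 1.62 for cldnf (SE 0.32, adjusted p = 0.0104 by limma). In that contrast 7.16% of the tested probe sets were called. The call of cldnb was lost in 5 of 8 fits to 7 arrays, those that lacked either WT array of 30% epiboly, WT replicate 2 of 60% epiboly, or replicate 1 of either MZspg group (highest adjusted p = 0.122). That of cldnf did not hold in the fits lacking one or the other WT array of 30% epiboly (adjusted p = 0.0573 and 0.0552). Without both arrays of high spike-in signal neither was called (adjusted p = 0.170 and 0.0805). Averaged over the genotypes, in a contrast added in the same way, 5 of the 7 probe sets were called between the stages, 3 higher (cldnf and cldng S3_at and S4_x_at) and 2 lower (cldnd and cldng S1_at), where 44.2% of all were called, 19.1% higher and 25.1% lower. That call of cldnf held in 3 of the 8 fits to 7 arrays (highest adjusted p = 0.124) and was lost with a pseudocount of 1 (0.0559) and with no filter (0.0592). Across the 8 arrays cldnb and cldnf correlated at r = 0.941 and cldnd and cldng S1_at at r = 0.985, as a description of arrays that share 4 groups.

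The remaining claudins of the group were near the lower end of the array's range. For cldne the arrays gave 11.27 and 10.73 in WT and 12.48 and 11.09 in MZspg at 30% epiboly, 15.73 and empty in WT and empty and 21.22 in MZspg at 60% epiboly. All lay under 24.62, in both genotypes and at both stages, so no difference was detectable at this signal. For cldni 6 cells were empty and the others read 3.183 in WT and 2.902 in MZspg, both on replicate 1 of 60% epiboly.

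Counted over the 7 tested probe sets, limma called 0 between the genotypes at 30% epiboly, where 1.68% of all tested probe sets were called, and 1 (cldnb) had an unadjusted p under 0.05, as 9.36% of all did. The 2 genotypes did not overlap for 3 of the 7 probe sets, against 38.5% of all. At 60% epiboly 1 was called (cldnf), against 4.52% of all, and 3 had an unadjusted p under 0.05, against 22.2%. There the genotypes did not overlap for 5 of the 7, against 51.8% of all. Between the stages 3 were called in WT, 1 higher and 2 lower, where 13.8% of all were called, 5.6% higher and 8.17% lower. In MZspg 4 were called, 2 higher and 2 lower, where 32.6% of all were called, 13.8% higher and 18.7% lower. For the difference of the genotype effects between the stages 0 of 7 and 0 of 7372 probe sets were called, that is 0% of all, while 1 (cldnf) and 638 (8.65%) had an unadjusted p under 0.05. The members share targets, since 4 of the 7 probe sets are those of cldng. The genotypes at 30% epiboly and the stages in WT share the WT arrays of 30% epiboly, and the other comparisons share arrays likewise.

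**Figure D3:**
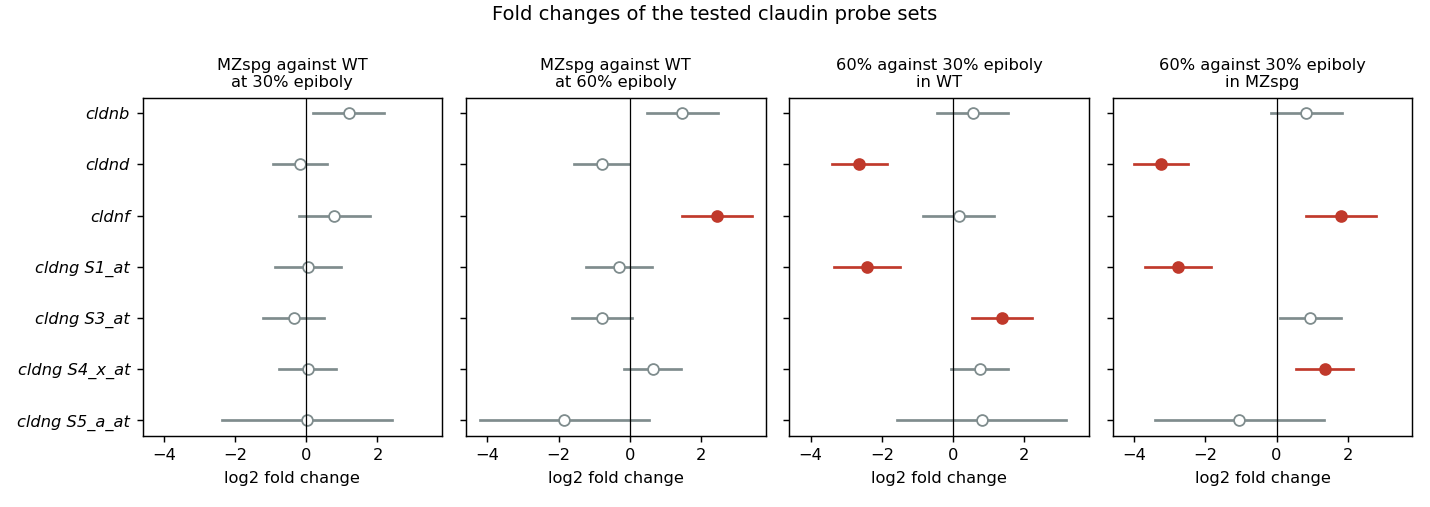
Log2 fold changes of the 7 tested claudin probe sets in 4 comparisons, with 95% intervals from the fit. Filled points passed an adjusted p of 0.05. Between the genotypes cldnf at 60% epiboly is the single filled point (2.45), while between the stages cldnd and cldng S1_at lie below 0 in both genotypes.

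Several of the claudin genes are neighbours in the genome. In the RefSeq annotation of the GRCz12tu assembly, used for gene order alone, cldnj, cldne, cldnf and cldna follow each other with 0 genes between them. In that row cldnf was called in MZspg at 60% epiboly, while cldne stayed below 24.62 on every array and cldnj had 5 empty cells and signals of at most 6.271. In another row, cldn3c, cldn3d and cldnb lie with 1 gene without protein-coding annotation between neighbours, and cldn29, cldnd, cldn28 and cldn30 follow cldnb with 0 genes between. There cldnd fell between the stages in MZspg (log2 fold change -3.25), while that of cldnb was 0.83. The gene cldng lies apart from both rows.

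The other claudins on the array, 13 genes with 15 probe sets, gave 7 tested probe sets of 5 genes. None of the 5 was called between the genotypes at 30% epiboly, where 1.68% of all tested probe sets were, or at 60% epiboly, where 4.52% were. At an unadjusted p under 0.05 by limma they numbered 0 and 2, against 9.36% and 22.2% of all. At 60% epiboly all 5 had positive log2 fold changes on their brightest probe set (the other cldn12 probe set had -0.36), with a median of 0.69 where the median of all tested probe sets was 0.01. The former cldnc, cldn3d, read 74.95 and 27.96 in WT and 128.5 and 160.1 in MZspg at that stage (1.45, SE 0.427, adjusted p = 0.0767). At 30% epiboly it read 43.48 and 54.97 in WT and 56.22 and 40.47 in MZspg, so that the genotypes overlapped. The former cldnh, cldn3c, had no value at 30% epiboly and read 16.14 and 36.79 in MZspg and 6.751 on 1 WT array at 60% epiboly, below the filter.

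Between the stages 2 of these 5 genes were called in MZspg, where 32.6% of all probe sets were, and 0 in WT (0 at an unadjusted p under 0.05), where 13.8% were. The gene cldn8.2 read 85.93 and 102.6 in WT and 74.58 and 17.89 in MZspg at 30% epiboly, and 290.6 and 150.1 in WT and 257.5 and 380.0 in MZspg at 60% epiboly. It rose in MZspg (2.76, SE 0.518, adjusted p = 0.00329 by limma) whichever array was left out, and in WT its log2 fold change was 1.08 (adjusted p = 0.177). The difference between the rises was 1.68 with an adjusted p of 0.573. The rise of cldn3d in MZspg (1.42, adjusted p = 0.0257) was lost without replicate 2 of either MZspg group (highest adjusted p = 0.155), and its difference from that in WT was 1.48 with an adjusted p of 0.537. The cldn7b probe set ending in S1_s_at read 345.2 and 291.8 in WT and 901.1 and 297.2 in MZspg at 60% epiboly, a further probe set whose MZspg replicates stood apart.

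Other tight junction genes came from a list of scaffold, adhesion and polarity genes. Of 15 tested genes 0 were called at 30% epiboly, where 1.68% of all tested probe sets were. There 2 had an unadjusted p under 0.05 by limma, against 9.36% of all. At 60% epiboly 1 rose and 1 fell, where 4.52% of all were called. The riser was jam3b, a junctional adhesion molecule, which read 30.35 and 6.265 in WT and 159.7 and 379.0 in MZspg (3.38, SE 0.514, adjusted p = 0.00394). The gene that fell was its relative jam2a, at 295.6 and 243.5 in WT and 89.38 and 76.58 in MZspg (-1.60, SE 0.317, adjusted p = 0.0161). Leaving out MZspg replicate 2 or either of the WT arrays of that stage ended its call (highest adjusted p = 0.133). The scaffold gene tjp3 had a log2 fold change of -0.72 at this stage. The brightest probe set of tjp2b, a zonula occludens scaffold gene, had one of -0.39 and its other probe set one of -1.24. For the occludin genes it was 0.41 (oclna) and 1.45 (oclnb), and none of these 4 genes was called. A dimmer epcam probe set, with probes that may match other sequences, was called lower (-1.85, adjusted p = 0.023 by limma). It had 52.40 and 55.01 in WT, and empty cells in MZspg that took the fill value. Those WT arrays alone reached the filter, so this epcam probe set entered the test through the group in which it was high. The brightest probe set of this adhesion gene had 0.24 (adjusted p = 0.588).

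Between the stages 13.8% of all tested probe sets were called in WT and 32.6% in MZspg. Of the 15 other tight junction genes tested, 1 rose and 1 fell in WT, and 3 rose and 1 fell in MZspg. In WT they were the scaffold gene magi1b (2.04) and the polarity gene pals1a (-1.44), whose calls were lost without any one of the 4 WT arrays (highest adjusted p = 0.337 and 0.264). In MZspg magi1b (2.68), ildr1a, of the angulin family of tricellular junction proteins (1.68), and jam3b (2.06) rose and jam2a fell (-1.55). The call of jam2a held whichever array was left out, those of magi1b and ildr1a were lost without MZspg replicate 2 of 30% epiboly (0.0569 and 0.0523) and that of jam3b without replicate 2 of either MZspg group (0.106 by limma). The median over the 15 genes was -0.50 in WT and -0.27 in MZspg, where that of all tested probe sets was -0.07 and -0.11.

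Genes of adherens junctions and desmosomes, the neighbouring complexes of epithelial cells, were called between the stages for 6 of 17 tested genes in WT (13.8% of all probe sets were called) and 11 of 17 in MZspg (32.6% of all). Of these 5 rose and 1 fell in WT, and 9 rose and 2 fell in MZspg, with medians of 0.66 and 1.09. Some calls were unstable in the 8 fits with an array left out. In MZspg the rises of pkp4 and dsg2.1 held in 3 of these and the fall of ctnna2 in 5. In WT the rise of dspa and the fall of nectin3b held in 4. The gene nectin3b fell in both genotypes (-1.81 in WT and -2.47 in MZspg). In MZspg the N-cadherin gene cdh2 rose by 3.69, the plakophilin gene pkp1b by 3.93 and the envoplakin gene evplb by 2.53 on the log2 scale, and all 3 genes stayed called in each fit to 7 arrays (highest adjusted p = 0.0138 by limma). At 30% epiboly pkp1b (6.288 to 29.18) and evplb (4.286 to 8.391) lay below the filter on every array. Both therefore entered the test through the stage in which they were high. In WT cdh2, pkp1b and evplb had log2 fold changes of 2.22, 2.35 and 2.48, called with all arrays. Leaving out WT replicate 1 of 30% epiboly ended all 3 calls, in a fit that called 0 of all tested probe sets in that comparison. The call of cdh2 also failed without either WT array of 60% epiboly and that of pkp1b without WT replicate 2 of 30% or WT replicate 1 of 60% epiboly (highest adjusted p = 0.188). Between the genotypes the plakophilin gene pkp3a alone was called, lower at both stages. Of all tested probe sets 1.68% were called at 30% and 4.52% at 60% epiboly. At 30% epiboly it read 80.15 and 121.1 in WT and 13.05 and 19.61 in MZspg (-2.10, adjusted p = 0.0193), a call lost without any one array of that stage (highest adjusted p = 0.249), and at 60% epiboly the log2 fold change was -3.22 (adjusted p = 0.00113).

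**Figure D4:**
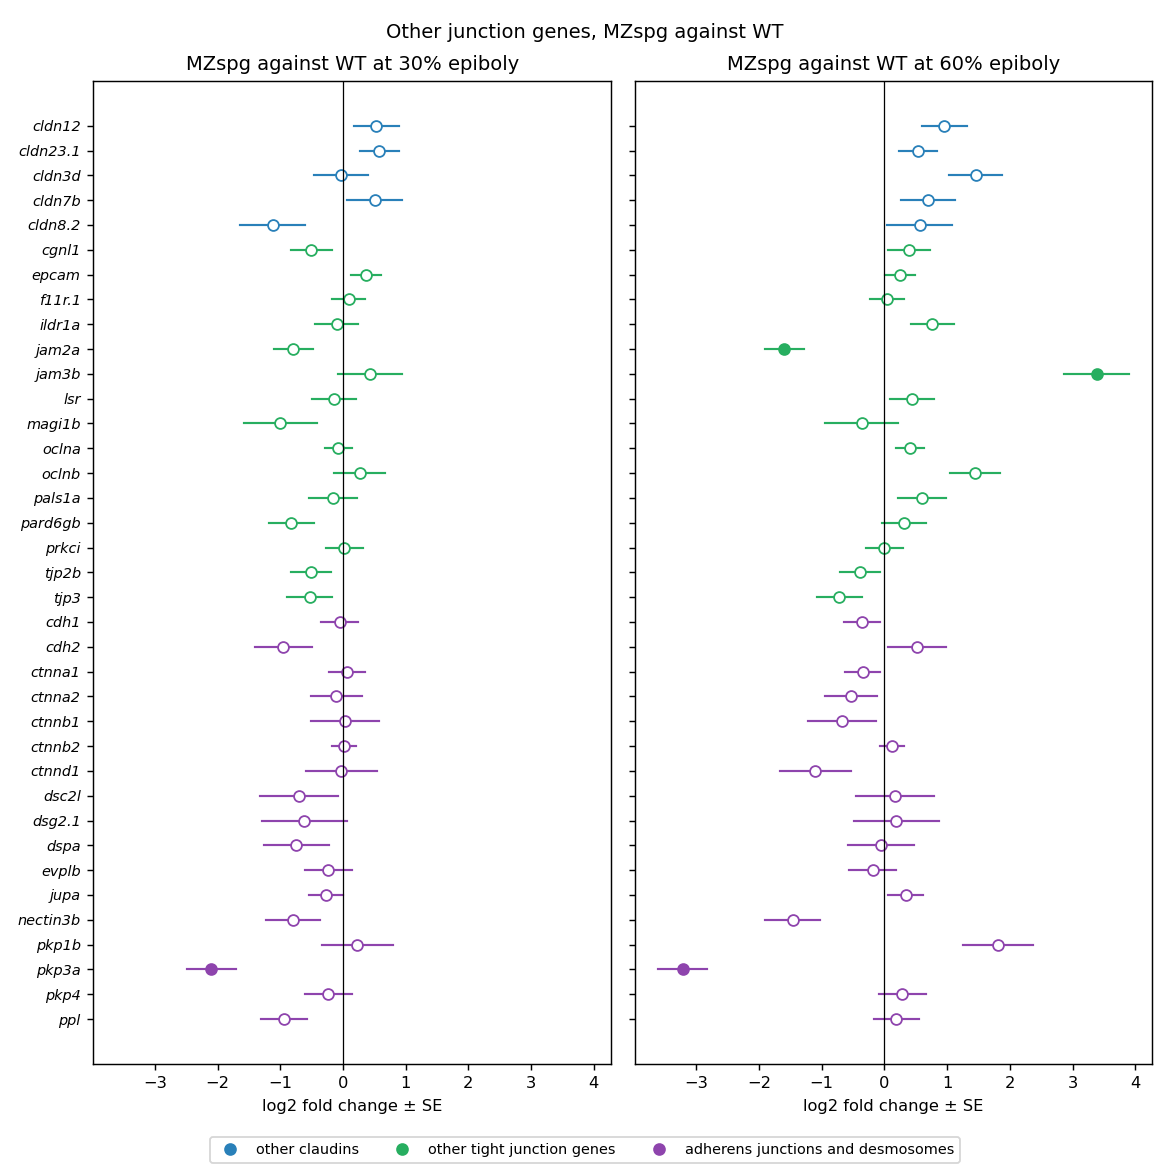
Log2 fold change ± SE of MZspg against WT at 30% and 60% epiboly for the tested junction genes beside the claudins of the group, 1 probe set per gene. Filled points passed an adjusted p of 0.05. At 30% epiboly pkp3a (-2.10) is filled, and at 60% epiboly jam3b (3.38), jam2a (-1.60) and pkp3a (-3.22).

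Markers of the outer layers were set beside the claudins. The summed signal of 11 enveloping layer genes came to 6493 and 8598 in WT and 6323 and 2771 in MZspg at 30% epiboly, and 14368 and 11369 in WT and 7941 and 11402 in MZspg at 60% epiboly. It was lowest on MZspg replicate 2 of 30% epiboly, where 6 of the 11 cells were empty. Most of each sum at 30% epiboly came from the bright keratin genes krt8, krt18a.1 and krt4. These read 1949, 1725 and 1639 on WT replicate 1 and 2234, 2629 and 1176 on MZspg replicate 1 of that stage. Of 8 tested genes of this list 0 rose and 2 fell at 30% epiboly, where 1.68% of all were called. These 2 were the keratin gene krt5 (-3.72, adjusted p = 0.00564) and the annexin gene anxa1a (-2.83, adjusted p = 0.0208 by limma). Both calls were lost without either WT array of 30% epiboly, and that of anxa1a also without MZspg replicate 2 (highest adjusted p = 0.117 and 0.234). The cldnb and cldnf signals of 30% epiboly were higher in MZspg, but neither difference was called (adjusted p = 0.371 and 0.71 by limma). The cldnf signals of both WT arrays and of MZspg replicate 2 lay under 24.62 at that stage. At 60% epiboly, where cldnf was called, 0 of the 8 enveloping layer genes were, against 4.52% of all tested probe sets. At an unadjusted p under 0.05 by limma there were 2, against 22.2% of all. The median log2 fold change of the 8 genes was -0.31. Between the stages 3 of the 8 rose in WT and 5 in MZspg, and 0 fell. The claudin probe sets went both ways: cldnd and cldng S1_at were called lower in both genotypes. Called higher were cldng S3_at in WT, and cldnf and cldng S4_x_at in MZspg. Of all tested probe sets 5.6% were called higher in WT and 13.8% in MZspg.

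For the yolk syncytial layer the summed signal of 7 genes came to 727.5 and 731.7 in WT and 1057 and 2411 in MZspg at 60% epiboly, and 278.0 to 370.8 over the 4 arrays of 30% epiboly. It was highest on MZspg replicate 2 of 60% epiboly. Of this sum at 60% epiboly, apoa1a gave 244.2 and 197.2 in WT and 483.7 and 1225 in MZspg. Between the genotypes 1 of the 7 genes was called at that stage, where 4.52% of all were. This was apobb.1 (3.18, adjusted p = 0.0115 by limma), a call lost without WT replicate 1. It read 9.292 and 10.16 in WT, under 24.62, and 67.03 and 371.2 in MZspg. Only these MZspg arrays reached the filter, so apobb.1 entered the test through the group in which it was high. The size of its difference is not fixed by these values. At an unadjusted p under 0.05 by limma there were 5 of the 7 genes, against 22.2% of all. The log2 fold change was positive for these 5 genes and negative for mxtx2 (-0.48) and gata6 (-0.08). The summed signal of 7 genes of the deep cell ectoderm was lower in MZspg at both stages, 1354 to 1403 against 2071 to 2711 at 30% and 1981 to 2039 against 3679 to 3780 at 60% epiboly. Of its 6 tested genes 0 were called at 30% epiboly, where 1.68% of all were. At that stage 5 had an unadjusted p under 0.05 by limma, against 9.36% of all. At 60% epiboly 4 fell, where 4.52% of all were called. These were tfap2c (-2.43), foxi1 (-2.26), gata2a (-2.05) and tfap2a (-1.78, highest adjusted p = 0.0126 by limma). At 60% epiboly tfap2c read 119.6 and 49.84 in WT. In MZspg it read 6.022, under 24.62, and an empty cell took the fill value. Only the WT arrays of 60% epiboly reached the filter, so tfap2c entered the test through the group in which it was high. The size of its difference is not fixed by these values. The gene foxi1 likewise reached the filter on WT arrays alone. The call of tfap2c held whichever array was left out. Those of foxi1, gata2a and tfap2a were each lost in some of these fits (highest adjusted p = 0.0953). The part of these cell layers in the claudin differences was not tested.

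The genes most like each claudin over the 8 arrays were found by Pearson correlation among 5954 tested probe sets of other named genes. For cldnd they were qrsl1, of mitochondrial glutamine tRNA synthesis, and tmub1 (r = 0.992 and 0.990). For cldnf they were the prion-related gene prnprs3 and the apelin receptor gene aplnra (0.974 and 0.972). For aplnra the arrays read 395.2 and 263.5 in WT and 1199 and 1392 in MZspg at 60% epiboly. For cldnb they were chordc1b and arpp19b (0.978 and 0.977). For the brightest cldng probe set, S5_a_at, they were the kinase genes clk4a and stk40 (0.990 and 0.985), and stk40 also stood apart on MZspg replicate 2 of 60% epiboly, at 327.5 against 1507 on replicate 1. The S1_at probe set, added here because the cldng probe sets disagree, was most like qrsl1 and siva1 (0.989 and 0.988). Its S3_at was most like zgc:77614 and pggt1b (0.965 and 0.957), and its S4_x_at most like ell2 and arid3b (0.993 and 0.987).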

How the data were processed

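The table holds linear signal intensity values per probe set, 1 column per array, as deposited by the authors. MAS5 is named in the submitters' processing notes. The series' design text names Genedata Expressionist Analyst for comparing the genotypes. How all arrays came to share the same quantiles, and why cells were left empty, is not given in the sources used here. Gene symbols are those of the platform annotation. An empty cell took the value 8.35, the 10th percentile (1.22% of the cells of tested probe sets). The 30 control probe sets were left out. Values were analysed as log2(value + 9).

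The 4 group means were estimated over the 8 arrays together by lmFit and eBayes (trend on mean intensity) of limma 3.58.1, run in R 4.3.3. Residual degrees of freedom were 4, and 7.67 came from the prior. The fit was tested on simulated data. P-values are two-sided and were adjusted within each comparison by Benjamini-Hochberg (7372 probe sets). The number of arrays limits the precision. Each other gene is represented by its brightest probe set. Every claudin probe set of the group is named, and for each tested claudin the 2 most alike genes. From the lists only some of the called genes are named, and further list members were named after their values were seen. Alternatives were other pseudocounts, filters and fills, centring, the arrays fitted, the variance prior, a replicate block, a spike-in term and leaving out arrays. The members and lists were chosen with earlier results of these data known. No sequence is printed because none was in the sources used here.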

Additional observations from a re-analysis of the deposited data

How the results depend on the processing

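With the main settings 0 and 1 of the 7 claudin probe sets were called between the genotypes at 30% and 60% epiboly. Between the stages 3 were called in WT and 4 in MZspg, and for the interaction 0. The other fold changes, which were most of them, had no call to lose. Of 718 refits of the 35 claudin fold changes in the 5 planned comparisons, called or not, 693 kept their side of the threshold, 19 lost a call and 5 gained one. In 1, that of cldng S5_a_at between the stages in MZspg without MZspg replicate 2 of 60% epiboly, a call arose with the sign turned (1.46), while without replicate 1 it was -3.55. Averaged over the genotypes its stage difference (-0.12) turned to 1.13 without MZspg replicate 2 (-1.37 without replicate 1) and to 0.98 without both arrays of high spike-in signal. The 1 call between the genotypes at 60% epiboly fell to 0 with the stricter filter, with only the arrays compared and without both arrays of high spike-in signal. The 3 calls between the stages in WT fell to 1 with no filter. In the averaged genotype contrast 2 calls became 1 with no filter or the stricter one and 0 without both high spike-in arrays, and in the averaged stage contrast 5 became 3 with the stricter filter. With 1 array left out, the calls numbered 0 in all fits at 30% epiboly, 0 to 2 at 60% epiboly, 0 to 3 between the stages in WT, 2 to 6 in MZspg, 0 to 1 for the interaction, and 0 to 2 and 4 to 6 in the averaged genotype and stage contrasts.

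Calls over all probe sets also depended on the setting: 124 at 30% epiboly (31 with no filter), 333 at 60% epiboly (614 with a spike-in term), 1015 between the stages in WT and 2402 in MZspg. They were fewer at 30% epiboly without WT replicate 2 and more at 60% epiboly without MZspg replicate 1. Without WT replicate 1 of 30% epiboly 0 were called between the stages in WT, so every call of that comparison was lost there. Without both high spike-in arrays they were fewer at 60% epiboly and between the stages in both genotypes, in fits that left a single array in each group of 60% epiboly. Centring the arrays moved the median fold change of all probe sets by less than 0.1. No pairing of the samples by replicate number was seen: differences between replicates correlated at -0.333 to 0.0779 between groups. These correlations cannot exclude a pairing, under these numbers or others. With the replicate block 0, 1, 2, 4 and 0 claudin probe sets were called in the 5 comparisons, with the call of cldng S3_at in WT lost (adjusted p = 0.0507). With the MZspg numbers of 30% epiboly exchanged, an alternative added after the data were seen, the counts were 0, 1, 3, 4 and 0. Signals below about 24.62 limit what can be compared: those of cldne and cldni on every array, and those of cldnf on all 4 WT arrays and MZspg replicate 2 of 30% epiboly.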
